A study of Homo sapiens with 2 samples.

Results

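The proteins of the cytosolic ribosome were examined at the transcript level after an siRNA against T-bet in KG1, an established human line from an acute myeloid leukaemia. Members were taken by gene symbol, namely the RPL and RPS genes of the large and small subunit with RPLP0, RPLP1, RPLP2, RPSA and FAU, without S6 kinases and pseudogenes. The rule found 60 of the 19775 genes that a probe set names alone, read by 121 of the 54675 probe sets of the array. Of these 60 genes, 32 encode core proteins of the 60S subunit, 21 encode core proteins of the 40S subunit and 7 are paralogs of a core protein.

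Cells of group siRNA-Tbet had received 1.98 µg of an siRNA directed at T-bet by electroporation, and the cells of group siRNAc had received 1.98 µg of a control siRNA in the same way. Cells of both groups then rested for 5 h and were given interleukin-18 at 10 ng/ml for 12 h, so no unstimulated or untransfected cells stand beside them. Each group is 1 array of 1 cell line, so no value below has a replicate error, no test was possible, and a difference between the groups cannot be told apart from a difference between these 2 cultures or arrays. The values are MAS5 signals, a linear brightness in arbitrary units computed for each probe set, and ratios are given as log2 of siRNA-Tbet over siRNAc. Because fewer cells and less RNA per cell cannot be told apart on bulk arrays, a ratio is relative to the rest of the array.

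Ribosomal proteins are assembled with ribosomal RNA in the nucleolus into a small subunit, which decodes the messenger RNA, and a large subunit, which joins amino acids. Their messengers are among the most abundant in growing cells. Most begin with a C followed by a run of pyrimidines, the terminal oligopyrimidine (TOP) tract, which the RNA-binding protein LARP1 recognises and through which the kinase mTORC1 controls their translation. That control acts on the use of the messenger by ribosomes, which these arrays did not measure.

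The starts of the genes are shown first because this shared sequence was not part of the selection rule. RefSeq promoter sequences on GRCh38.p14 were matched for 52 of the 60 members. A tract was counted where a C followed by at least 4 C or T, on the coding strand, began within 5 bases of the annotated start. It was present in 42 of the 52 members (80.8%) and in 41 of 47 core members (87.2%), against 22.1% of 15843 protein-coding genes of the same table searched the same way. The tracts of members were 5 to 22 bases long, with a median of 11 bases against 6 bases in all protein-coding genes with a tract. The following windows hold 15 bases before the annotated start and the first 15 bases of the transcript, with the tract in capitals; the genes are bright core members with high, middle and low ratios among those given below.
RPL36, chr19:5690280-5690309, plus strand: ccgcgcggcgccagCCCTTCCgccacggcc
RPL24, chr3:101686704-101686733, minus strand: ttcccatgattCTCTCTTTCTTTTCgccat
RPL39, chrX:119791616-119791645, minus strand: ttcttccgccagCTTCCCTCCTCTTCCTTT
RPS23, chr5:82278340-82278369, minus strand: tcctgcggtgCTTCTCTCTTTCgctcaggc
RPL35, chr9:124861943-124861972, minus strand: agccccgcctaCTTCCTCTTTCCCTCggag
The tract of RPL39 is 22 bases long and runs past the end of its window.

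Among paralogs the tract was present in 1 of 5 with a matched promoter (20%), and the difference from core members was not tested. The same windows for core proteins and paralogs show in capitals any tract that began within 5 bases of the annotated start. The lines without capitals hold none that began there, though a like run can lie further off.
RPL22, chr1:6199581-6199610, minus strand: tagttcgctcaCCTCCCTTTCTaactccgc
RPL22L1, chr3:170870181-170870210, minus strand: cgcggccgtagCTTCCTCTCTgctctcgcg
RPS27, chr1:153990747-153990776, plus strand: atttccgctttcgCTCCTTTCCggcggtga
RPS27L, chr15:63157463-63157492, minus strand: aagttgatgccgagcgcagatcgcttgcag
RPL26L1, chr5:172958714-172958743, plus strand: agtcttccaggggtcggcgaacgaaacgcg
RPS29, chr14:49598696-49598725, minus strand: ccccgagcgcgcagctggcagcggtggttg
RPS29 is the core member in this set with no tract at its annotated start. No match says only that these letters are not near the annotated start. Among bright core members the median log2 ratio was 0.14 in the 31 with a tract and 0.14 in the 5 without.

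Signals of the ribosomal protein genes lay slightly higher on the siRNA-Tbet array. Of the 60 genes, 52 had a probe set outside the class marked _x_at, whose probes can cross-hybridise, and 50 of these were measured, meaning that their brightest such probe set lay above the median of at least 1 array. Those medians, 144 for siRNA-Tbet and 146 for siRNAc, also served as floors to which lower values were raised. Of the 50 genes, 46 were higher and 4 lower in siRNA-Tbet cells, and the median log2 ratio was 0.14, or 9.81% higher. Among all 11895 measured genes 46% were higher and the median was -0.02. A ratio of at least 1.1-fold was seen upward in 24 members, against 21.1% of all measured genes, and downward in 1 member, against 28.3%. After quantile normalization the split was 30 higher and 20 lower, with a median of 0.01. With the trend of ratio on signal removed it was 44 higher and 6 lower, with a median of 0.06. Of all measured genes 46.9% were higher after quantile normalization and 46.6% after removal of the trend.

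The 40 core genes with a mean signal of at least 10000 were taken as a group. Their signals spanned 10400 to 66350 with siRNA-Tbet and 10380 to 59791 with siRNAc, and all 40 were higher with siRNA-Tbet on the deposited scale. Of the 978 other genes in the same signal range, 66.1% were higher. At least 1.1-fold higher were 21 of the 40, against 16% of those other genes. At least 1.1-fold lower were 0 of the 40, against 6.54%. Most of those other genes lay below 20000 and were dimmer than nearly all of the 40. Between 30000 and 40000, 3 of 8 members and 21 of 74 other genes were at least 1.1-fold higher. Between 40000 and 50000 these were 9 of 20 members and 9 of 24 other genes, and above 50000 they were 8 of 10 and 5 of 10. The ratios of the 40 genes had a standard deviation across genes of 0.05 on the log2 scale, against a technical spread of 0.11 between probe sets of the same gene in the brightest bin of genes.

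**Figure D1:**
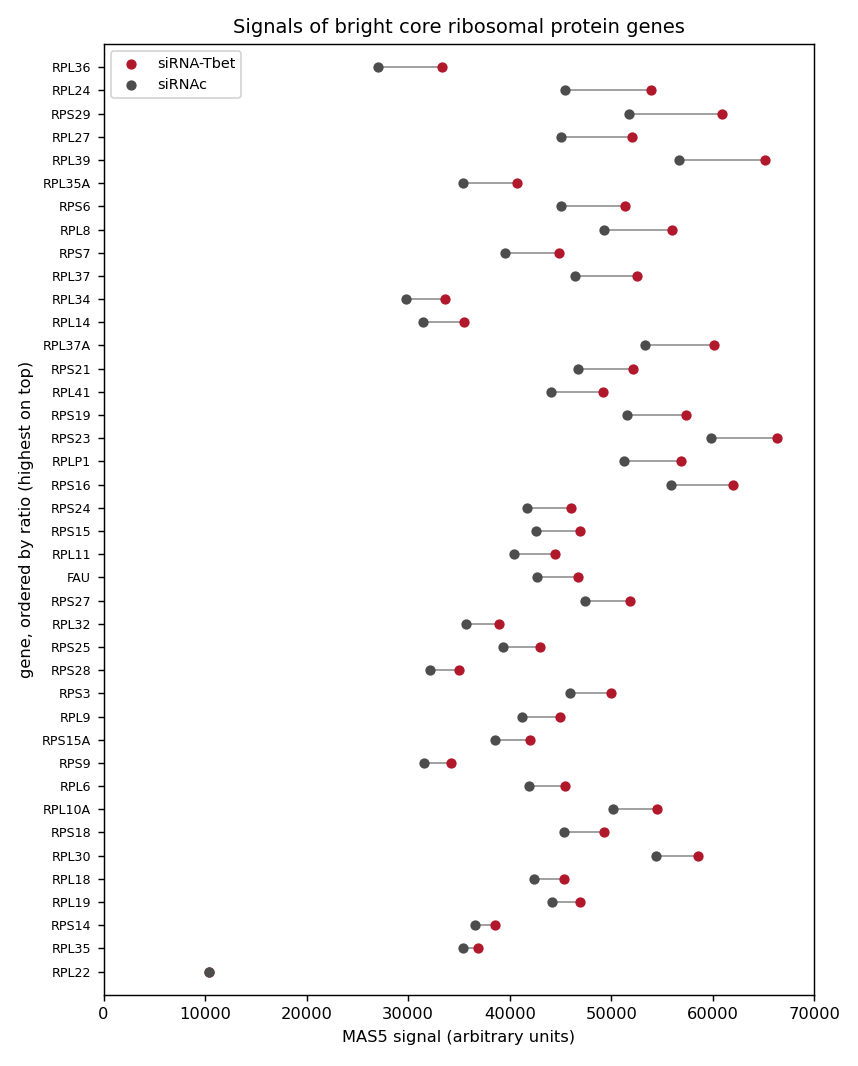
MAS5 signals (arbitrary units, linear axis) of the 40 core ribosomal protein genes with a mean signal of at least 10000, ordered by ratio with the highest on top; red points are the siRNA-Tbet array, grey points the siRNAc array, 1 array each with no error bars. Every red point lies to the right of its grey point except for RPL22, where they coincide within the size of the points (10400 and 10380).

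Within the large subunit, 26 of 28 measured core genes were higher, against 46% of all measured genes, and their median log2 ratio was 0.15. Counts of other bright genes stand with those of the small subunit below. RPL36 read 33322 with siRNA-Tbet, against 26979 with siRNAc, a log2 ratio of 0.30, which was the highest among the bright members. Its ratio stayed between 0.22 and 0.33 under each scaling tried, but its _x_at probe set read 20.4 with siRNA-Tbet, below the floor, and 275 with siRNAc. RPL24, a protein at the bridge between the subunits, had 53930 with siRNA-Tbet and 45457 with siRNAc (0.25). RPL39, which lines the exit tunnel for the new peptide, had 65083 with siRNA-Tbet and 56687 with siRNAc (0.20). These genes stood above the middle of the group, while RPL22 did not differ by more than the technical spread. RPL37A, a zinc-binding protein, had 60117 with siRNA-Tbet and 53353 with siRNAc (0.17), and RPL30, which binds a kink in RNA, had 58552 with siRNA-Tbet and 54403 with siRNAc (0.11). RPL35, a protein at the mouth of the exit tunnel, had 36879 with siRNA-Tbet and 35373 with siRNAc (0.06).

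Further bright proteins of the large subunit lay between these values. RPL27, mutated in some patients with Diamond-Blackfan anaemia, had 52078 with siRNA-Tbet and 45057 with siRNAc (0.21). RPL35A, another gene of that anaemia, had 40679 with siRNA-Tbet and 35438 with siRNAc (0.20). RPL8, a core protein near the peptide transfer centre, had 55952 with siRNA-Tbet and 49283 with siRNAc (0.18). None of these stood further from its signal bin than the technical spread. RPL11, which binds MDM2 when ribosome assembly is disturbed, had 44480 with siRNA-Tbet and 40449 with siRNAc (0.14). RPL41, a very short protein at the bridge between the subunits, had 49134 with siRNA-Tbet and 44089 with siRNAc (0.16), and RPL19, also at a bridge, had 46933 with siRNA-Tbet and 44206 with siRNAc (0.09).

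The stalk of the large subunit recruits the elongation factors and is built from RPLP0, RPLP1 and RPLP2. RPLP1 read 56820 with siRNA-Tbet, against 51207 with siRNAc, a log2 ratio of 0.15. RPLP2 was named alone by dim probe sets only, the brighter of which read 218 with siRNA-Tbet and 172 with siRNAc (0.35). That signal is near the floor of the arrays, where the technical spread was 0.34 to 0.38, so it says little of RPLP2. RPLP0, RPSA and RPS27A are not named alone by any probe set here and were not analysed.

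All 18 measured core genes of the small subunit were higher, with a median log2 ratio of 0.14 and a range of 0.07 to 0.24. Of all measured genes 46% were higher. Of other bright genes, 69 of 74 between 30000 and 40000, all 24 between 40000 and 50000 and all 10 above 50000 were higher. The count of the small subunit is thus near that of other genes as bright. RPS23, a protein of the decoding centre, read 66350 with siRNA-Tbet, against 59791 with siRNAc (0.15). RPS16, which contacts the transfer RNA, had 62017 with siRNA-Tbet and 55901 with siRNAc (0.15). RPS29 had 60890 with siRNA-Tbet and 51720 with siRNAc (0.24), the highest ratio of this subunit. FAU, whose product is cut into RPS30 and a ubiquitin-like protein, had 46762 with siRNA-Tbet and 42646 with siRNAc (0.13). RPS14, the gene of the 5q- syndrome of bone marrow failure, had 38518 with siRNA-Tbet and 36615 with siRNAc (0.07), the lowest of the 18. RPS6, the substrate of S6 kinase, had 51385 with siRNA-Tbet and 45080 with siRNAc (0.19). RPS19, the gene most often mutated in Diamond-Blackfan anaemia, had 57322 with siRNA-Tbet and 51556 with siRNAc (0.15). RPS3, at the entry of the messenger channel, had 50003 with siRNA-Tbet and 45894 with siRNAc (0.12). The ratios of the small subunit thus differed little among themselves, with a standard deviation of 0.035 over the 18 genes. For other genes it was 0.088 between 30000 and 40000, 0.053 between 40000 and 50000 and 0.033 above 50000. After quantile normalization the medians were 0.02 for the large and 0.01 for the small subunit.

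Other very bright genes showed ratios of the same size. At a mean signal between 40000 and 50000, the median log2 ratio was 0.14 in 20 members and 0.13 in 24 other genes, and all 24 of these other genes were higher with siRNA-Tbet. Above 50000 it was 0.15 in 10 members and 0.14 in 10 other genes, all 10 of these other genes higher. Between 30000 and 40000 it was 0.13 in 8 members and 0.09 in 74 other genes. Ratios of genes that are no member were thus larger at higher signal, with medians of 0.02 between 10000 and 20000 and 0.06 between 20000 and 30000.

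Taken against the median of the other genes of its own signal bin, a comparison added after the values were seen, the 42 members above 10000 had a median difference of 0.01. Of them 28 were above their bin and 14 below, and 39 lay within the technical spread of 0.11, taken at a median signal of 7299. The exceptions were RPL36, 0.24 above its bin, RPL24, 0.12 above, and RPS27L, at -0.14.

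**Figure D2:**
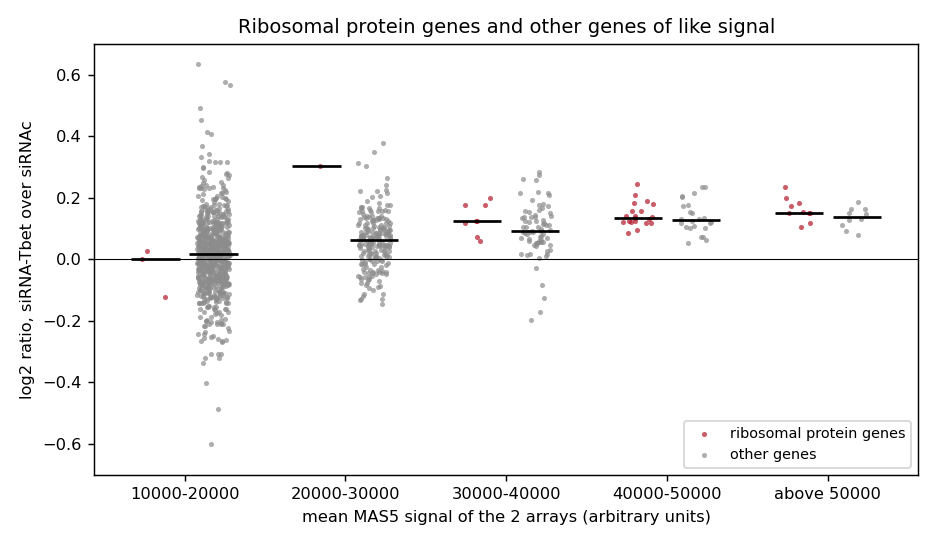
Log2 ratio of siRNA-Tbet over siRNAc by bins of mean MAS5 signal (arbitrary units); each point is a gene, red for ribosomal protein genes and grey for other genes, and the black bars are medians. In the bin from 40000 to 50000 the medians are 0.14 for 20 ribosomal protein genes and 0.13 for 24 other genes.

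Control probe sets of similar brightness differed by like amounts. The 4 probe sets of cre, a bacteriophage transcript that the standard protocol adds at a fixed amount before hybridisation, had log2 ratios of 0.06 to 0.18; their signals included 48943 with siRNA-Tbet and 44740 with siRNAc. The control probe sets for ACTB (actin) had ratios of 0.14 to 0.18, and those for GAPDH had ratios of 0.12 to 0.17. The 99th percentile of all signals was 24488 with siRNA-Tbet and 23604 with siRNAc, a log2 ratio of 0.05, and the highest signals differed by 0.15, whereas the 90th percentile differed by -0.02. The bright end of the siRNA-Tbet array was thus higher as a whole, and the median ratio of the ribosomal protein genes was within the range of these bright controls. Each ratio of a single bright member is read beside that shift.

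**Figure D3:**
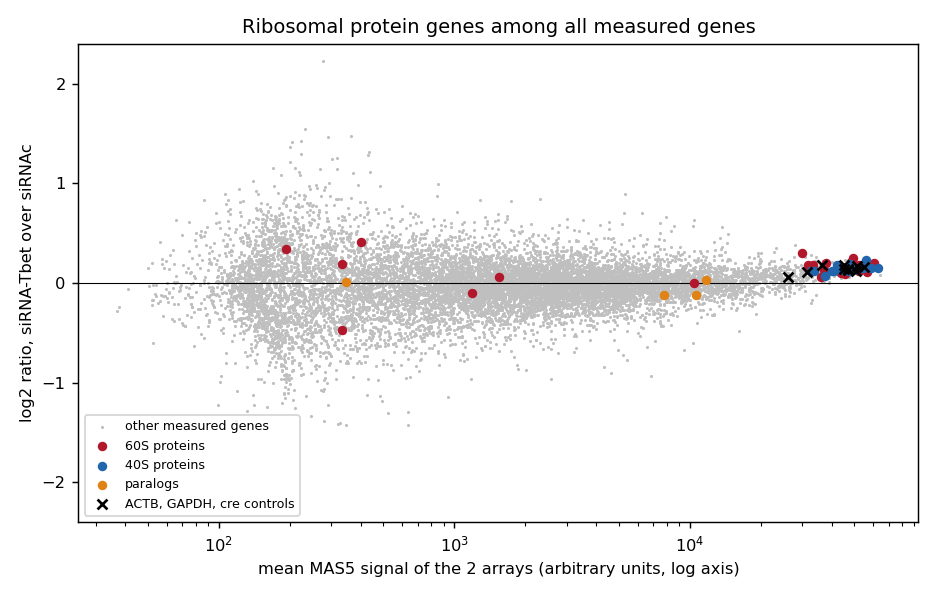
Log2 ratio of siRNA-Tbet over siRNAc against mean MAS5 signal (arbitrary units, log axis) for each measured gene; coloured points are ribosomal protein genes, grey points other genes and crosses the control probe sets for ACTB, GAPDH and cre. The bright members and the crosses share the right end of the plot, where the crosses lie at ratios of 0.06 to 0.18.

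The arrays differed in their added poly(A) controls, whose 27 probe sets were 3.61-fold to 15.2-fold higher on the siRNA-Tbet array; the part of this in the members' values was not tested. The 3' to 5' signal ratio of ACTB was 1.2 with siRNA-Tbet and 1.22 with siRNAc, and that of GAPDH was 0.975 with siRNA-Tbet and 1.01 with siRNAc. Ribosomal RNA itself was read only by control probe sets. That for the middle of 28S rRNA had 1445 with siRNA-Tbet and 2810 with siRNAc. That for its 5' end had 1217 with siRNA-Tbet and 1299 with siRNAc, and that for its 3' end lay below the floor on both arrays. The 3 probe sets for 18S rRNA, at signals of 129 to 315, had log2 ratios of -0.98 to -0.30. Ratios of control probe sets were taken without flooring, and the lowest of these rests on a siRNA-Tbet signal of 129, below the floor of 144. The transcript of T-bet, TBX21, had 1839 with siRNA-Tbet and 3581 with siRNAc (-0.96). Of 6 markers of KG1 with a probe set, 5 were measured, and the list summed to 81187 with siRNA-Tbet and 71024 with siRNAc. CD34 had a log2 ratio of 0.11, FLT3 0.02, PTPRC -0.06, MYB 0.35 and GATA2 0.45, and SPN lay below the floor. The 5 markers of other cells summed to 3302 with siRNA-Tbet and 3386 with siRNAc, nearly all of it PECAM1, which myeloid cells also express.

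Genes read by dim probe sets were more mixed. Of the 8 measured members with a mean signal below 10000, 5 were higher and 3 lower, with a median log2 ratio of 0.03. Past 1.1-fold were 3 upward and 1 downward. Among all measured genes 46% were higher, 21.1% were past 1.1-fold upward and 28.3% were past it downward. The highest ratio among the 50 genes, 0.42, belonged to RPL7, a 60S protein, but to a probe set that read 466 with siRNA-Tbet, against 349 with siRNAc. Its other probe sets, both marked _x_at, read 66684 and 61371 with siRNA-Tbet against 61799 and 57654 with siRNAc, with ratios of 0.11 and 0.09. RPL36A, the only member at least 1.1-fold lower, was likewise read by a dim probe set, at 282 with siRNA-Tbet and 390 with siRNAc (-0.47). RPL38, which in the mouse affects translation of Hox messengers, had 1144 with siRNA-Tbet and 1225 with siRNAc outside the _x_at class (-0.10), while its bright _x_at probe set had 40708 with siRNA-Tbet and 37599 with siRNAc (0.11).

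The probe sets were divided in the same way. Of 45 member probe sets outside the _x_at class with a mean signal of at least 10000, 44 were higher. Of 1224 other named probe sets of that class past the same cut-off 66.3% were higher, and 48.2% of the class at any signal. The median log2 ratio was 0.14 in the 45 and 0.04 in those 1224. Brightness was not matched beyond the cut-off. Read by gene, 704 others but only 3 members lay between 10000 and 20000. All 24 other genes between 40000 and 50000 and all 10 above 50000 were higher. The 32 dimmer ones were split into 15 higher and 17 lower, with a median log2 ratio of -0.01. Over the 77 measured member probe sets of that class, 31 were at least 1.1-fold higher, against 25.8% of all, and 9 at least 1.1-fold lower, against 29.6%. In 11 genes the measured probe sets outside the _x_at class disagreed in sign (RPL22, RPL31, RPL35A, RPL37, RPL37A, RPS14, RPS15A, RPS21, RPS27, RPS28 and RPS29). In all 11 the brightest probe set was higher with siRNA-Tbet, though not always by the largest ratio. The probe sets that were lower with siRNA-Tbet after flooring had mean signals of 134 to 6627. RPS15A, for example, had 41960 with siRNA-Tbet and 38558 with siRNAc on its bright probe set (0.12) and 416 with siRNA-Tbet and 522 with siRNAc on a dim one (-0.33). For RPS14 the lower sign comes from the unequal floors alone, as that probe set read 146.1 with siRNA-Tbet and 123.2 with siRNAc.

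Values of the other genes of this kind follow. These genes were listed because their probe sets disagreed, and 44 of 45 bright member probe sets were higher. A lower dim probe set beside a higher bright one was thus largely set by that choice. In 9 further genes with several measured probe sets outside the _x_at class the signs did not disagree. RPS29, bright at 60890 with siRNA-Tbet, had a second probe set at 253 with siRNA-Tbet and 304 with siRNAc (-0.27). RPS21 had 52111 with siRNA-Tbet and 46754 with siRNAc (0.16) on its bright probe set, against 2315 with siRNA-Tbet and 2672 with siRNAc (-0.21) on the other. RPS28 had 35035 with siRNA-Tbet and 32145 with siRNAc (0.12) on its bright probe set. Its dim ones opposed each other, at 792 with siRNA-Tbet and 928 with siRNAc (-0.23) and at 323 with siRNA-Tbet and 211 with siRNAc (0.61), so dim probe sets of 1 gene do not give 1 direction. RPL35A had a dim probe set at 655 with siRNA-Tbet and 768 with siRNAc (-0.23). RPL37 had 52529 with siRNA-Tbet and 46380 with siRNAc (0.18) on its bright probe set and ratios of -0.07 to 0.24 on 3 dim ones. RPL31 had only dim probe sets outside the _x_at class, at 1579 with siRNA-Tbet and 1512 with siRNAc (0.06) and at 1394 with siRNA-Tbet and 1614 with siRNAc (-0.21), whereas its _x_at probe set had 54154 with siRNA-Tbet and 47754 with siRNAc (0.18). Outside the _x_at class the dim probe sets of RPL37A and RPS27 had ratios of -0.01 and -0.09. RPL37A also had a dim _x_at probe set at 462 with siRNA-Tbet and 759 with siRNAc (-0.72).

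**Figure D4:**
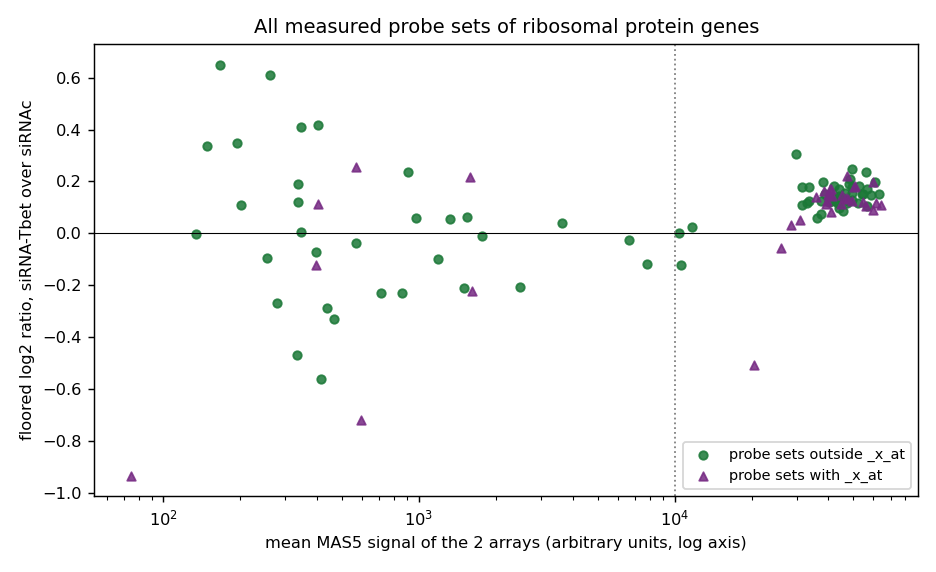
Each measured probe set of a ribosomal protein gene, 112 in all, by its log2 ratio after flooring, siRNA-Tbet over siRNAc, against mean MAS5 signal (arbitrary units, log axis); circles are probe sets outside the _x_at class, triangles those in it, and the dotted line marks a signal of 10000. Right of the line 44 of 45 circles lie above 0; left of it 15 of 32 do.

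Probe sets of the _x_at class gave like values where they were bright. Of 28 with a mean signal of at least 10000, 26 were higher with siRNA-Tbet, with a median log2 ratio of 0.13. Of 209 other named _x_at probe sets past the same cut-off 72.2% were higher, with a median of 0.06, though brightness was not matched beyond it. At any signal 50.3% of the class were higher. Of all 35 measured member probe sets of this class, 14 were at least 1.1-fold higher, against 26.9% of the class, and 4 at least 1.1-fold lower, against 28.5%. The 8 genes read only by this class were RPL3, RPL12, RPL23A, RPL29, RPL7L1, RPS4X, RPS10 and RPS12, and the brightest probe set of each was higher, at ratios of 0.03 to 0.18. RPS4X, a 40S protein encoded on the X chromosome, had 53623 with siRNA-Tbet and 47314 with siRNAc (0.18), and RPL3, which lies near the site of peptide bond formation, had 43398 with siRNA-Tbet and 38502 with siRNAc (0.17). RPS10 had the brightest of these probe sets, at 63946 with siRNA-Tbet and 58921 with siRNAc (0.12). RPL12 had 43133 with siRNA-Tbet and 38351 with siRNAc (0.17), RPL29 had 37541 with siRNA-Tbet and 34046 with siRNAc (0.14), RPL23A had 49278 with siRNA-Tbet and 44875 with siRNAc (0.14), and RPS12 had 46646 with siRNA-Tbet and 43118 with siRNAc (0.11). These ratios fall within the range of the bright core genes read outside the class. The exceptions among the bright probe sets belonged to RPL14 and RPS9. The _x_at probe set of RPL14 read 25478 with siRNA-Tbet and 26478 with siRNAc (-0.06), against 35541 with siRNA-Tbet and 31436 with siRNAc (0.18) on its other bright probe set. For RPS9, an early-binding 40S protein, the _x_at probe set read 17104 with siRNA-Tbet and 24302 with siRNAc (-0.51) and its other bright probe set 34244 with siRNA-Tbet and 31530 with siRNAc (0.12). Many ribosomal protein genes have processed pseudogenes of near-identical sequence, so what an _x_at probe set reads is uncertain. A further 49 probe sets list a member together with snoRNA or miRNA genes alone, many of which lie in introns of these genes, and name none of them here. Of the 47 measured, 38 were higher, against 48.2% of all probe sets outside the _x_at class and 50.3% of those in it, and their median was 0.12. The 35 with a mean signal of at least 10000 had 33 higher and a median of 0.13, whereas the 12 dimmer ones had 5 higher and a median of -0.14.

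The paralogs did not share the uniform direction of the bright core proteins, but most were also read at lower signals. Of 7 paralogs, 4 were measured outside the _x_at class, with log2 ratios between -0.12 and 0.03 and a median of -0.06. Their mean signals were 346 to 11749, below those of nearly all bright core genes. The core gene RPL22, at 10390, had a ratio of 0.0027, and other genes between 10000 and 20000 had a median of 0.02. RPS27L, a paralog of RPS27 known as a target of p53, read 10196 with siRNA-Tbet, against 11090 with siRNAc (-0.12), and its other probe sets read 395 and 340 with siRNA-Tbet against 482 and 501 with siRNAc. All 3 of its probe sets were lower with siRNA-Tbet, and the ratio of the brightest is close to the technical spread of 0.11. RPS27 itself had 51826 with siRNA-Tbet and 47367 with siRNAc (0.13). The ratio of RPS27L remained below 0 under each scaling tried, from -0.14 to -0.10.

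RPL22, a 60S protein that is also needed in T cell development, and its paralog RPL22L1 were read at lower signals. RPL22L1 had 7459 with siRNA-Tbet and 8098 with siRNAc (-0.12), and its ratio also remained below 0 under each scaling tried, from -0.13 to -0.10. RPL22 had 10400 with siRNA-Tbet and 10380 with siRNAc on its chosen probe set (0.0027), a sign that turned after quantile normalization and after removal of the trend on signal. Its 3 _x_at probe sets read 41388 to 43518 with siRNA-Tbet and 37928 to 39407 with siRNAc, all higher.

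The remaining paralogs lay near a ratio of 0 or were dim. RPL26 and RPL10, the core proteins behind RPL26L1 and RPL10L, are not named alone here. RPL26L1 had 11855 with siRNA-Tbet and 11644 with siRNAc (0.03), RPL7L1, a factor of ribosome assembly, had 28917 with siRNA-Tbet and 28291 with siRNAc on an _x_at probe set (0.03), and RPL10L, a testis paralog of RPL10, had 347.0 with siRNA-Tbet and 345.5 with siRNAc (0.01). RPL3L, the striated muscle paralog of RPL3, and RPL39L, the testis paralog of RPL39, lay below the floor on both arrays, so no ratio is given for them. With the brightest probe set of any kind the median of the then 5 paralogs was 0.01, so the sign of the group's median depends on RPL7L1. At this signal ratios of other genes were also smaller than at the signals of the core proteins.

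Other genes of ribosome biology gave medians between those of the core proteins and of all genes. The list of other TOP genes, mostly translation factors, had 13 of 18 measured, of which 10 were higher, with a median log2 ratio of 0.05; at least 1.1-fold were 2 upward and 1 downward. Beside the counts of this and the following lists stand 46% higher, 21.1% upward and 28.3% downward past 1.1-fold among all measured genes. Its highest member was EIF3F, a subunit of initiation factor 3, with 20479 with siRNA-Tbet and 17244 with siRNAc (0.25), and its lowest was EIF4B, a helicase cofactor, with 5232 with siRNA-Tbet and 5928 with siRNAc (-0.18). After quantile normalization the median of this list was -0.04. Of 37 ribosome biogenesis factors 31 were measured, 21 of them higher and 10 lower, at a median of 0.05, 7 at least 1.1-fold upward and 2 downward, so the upward share was near that of all genes. Among them GAR1, of the complex that pseudouridylates ribosomal RNA, had 4839 with siRNA-Tbet and 3984 with siRNAc (0.28), and RRP1, a nucleolar assembly factor, had 1376 with siRNA-Tbet and 1684 with siRNAc (-0.29).

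The list of RNA polymerase I, which transcribes the ribosomal RNA genes, had all 14 genes measured, 11 of them higher, with a median of 0.05 and 1 gene past 1.1-fold in each direction. Its catalytic subunit POLR1A had 2893 with siRNA-Tbet and 2379 with siRNAc (0.28), and TAF1C, of the promoter selectivity factor, had 1088 with siRNA-Tbet and 1262 with siRNAc (-0.21). Among 13 regulators of TOP messengers 8 were higher and 5 lower, at a median of 0.01, 4 upward and 3 downward past 1.1-fold. AKT1S1, an inhibitor of mTORC1, had 1181 with siRNA-Tbet and 854 with siRNAc (0.47), and MLST8, a subunit of mTORC1, had 1519 with siRNA-Tbet and 1911 with siRNAc (-0.33). Of 74 mitochondrial ribosomal protein genes 72 were measured, 47 higher and 25 lower, at a median of 0.04, 14 upward and 4 downward past 1.1-fold, again near the upward share of all genes. MRPS27 had 7225 with siRNA-Tbet and 5559 with siRNAc (0.38), and MRPS31 had 2574 with siRNA-Tbet and 3126 with siRNAc (-0.28). Most genes of these lists lie at lower signals than the core proteins, so the medians are not like for like. Medians were also taken at a mean signal of at least 10390, that of the dimmest of the 40 bright core genes. They were 0.09 in 10 other TOP genes, 0.07 in 11 biogenesis factors, 0.09 in 14 mitochondrial ribosomal proteins and 0.02 in 4 regulators of TOP messengers. RNA polymerase I had 1 gene at that signal, with a ratio of 0.08.

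**Figure D5:**
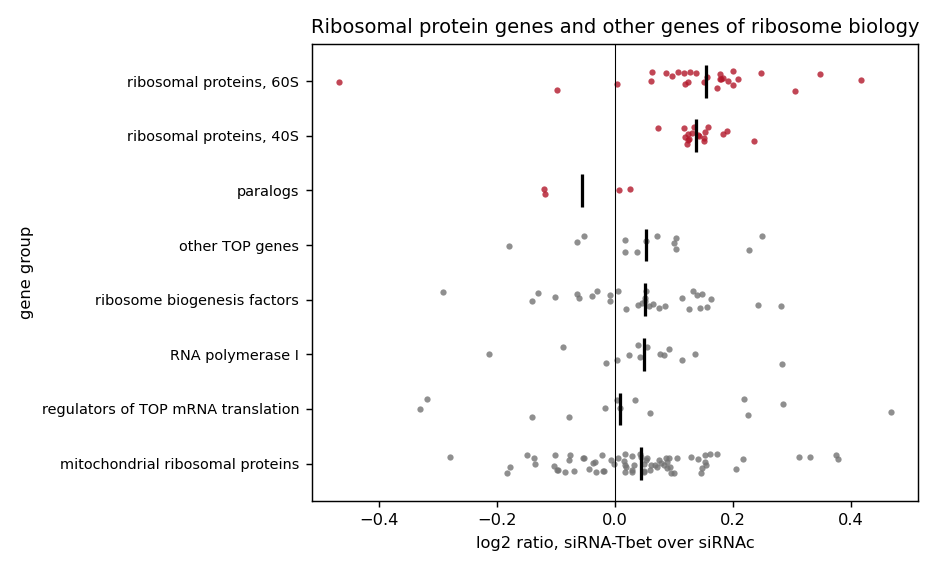
Log2 ratio of siRNA-Tbet over siRNAc for each measured gene of the groups named on the vertical axis; red points are ribosomal protein genes and paralogs, grey points other lists, and black bars are medians. Medians are 0.15 for the 60S and 0.14 for the 40S proteins, -0.06 for the paralogs and 0.01 to 0.05 for the other lists.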

How the data were processed

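Total RNA of 2 cultures of KG1 cells was read on 1 Affymetrix array each. The authors deposited linear signal intensity values per probe set, made with MAS5 per the submitters' processing notes; its version was not given in the sources used here. The 2 arrays both had a trimmed mean of 1000.1 (2% removed at each end), so no further scaling was applied. MAS5 subtracts mismatch signal, which makes dim values noisy, and bright signals can be compressed. The number of arrays limits the precision.

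Gene names came from the platform annotation; 41091 probe sets name 1 gene, 1801 several and 11721 non-control ones are unnamed here. Symbols were updated through Entrez numbers to RefSeq of GRCh38.p14, which altered no member. Signals were floored at each array's median and compared as log2 ratios; a gene was read by its brightest probe set outside the _x_at class. The technical spread is the SD of the difference between a gene's 2 brightest probe sets over the square root of 2. It was taken in 10 bins of the signal of the dimmer of the 2. The members, lists, thresholds and naming rule were chosen with earlier results of these data known. The rule named the stalk genes, the 5 highest and 5 lowest ratios, the 5 brightest genes, all lower members, paralogs, genes whose probe sets disagreed, genes read only by _x_at probe sets and each list's extremes; RPL35, the other core genes with values in the text and the further probe sets were picked as examples after their values were seen. Alternatives concerned scaling, floor, fold and choice of probe set. The procedure was tested on simulated data with no shift or with a set shift in the members alone. Those data held no trend of ratio on signal, so the test could not show how such a trend enters the members' ratios. Python 3.11.15, pandas 2.3.3 and statsmodels 0.14.6 were used.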

Additional observations from a re-analysis of the deposited data

How the results depend on the processing

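No paired analysis was possible because each group holds 1 array. A floor at the 25th percentile left every count of members as it was. Quantile normalization changed most. The median of the measured members was 0.00804, with 30 higher, 4 at least 1.1-fold higher and 2 at least 1.1-fold lower. Of all genes measured there 46.9% were higher, 21.9% at least 1.1-fold higher and 26.3% at least 1.1-fold lower. Medians were 0.0199 for the 60S and 0.00676 for the 40S proteins. For _x_at probe sets the median was 0, for the other probe sets 0.00875 and for other TOP genes -0.036. Removing the trend on signal gave medians of 0.06 for the members and 0.0020 for other TOP genes. It left 6 members at least 1.1-fold higher and 2 lower, against 21.8% and 26.8% of all measured genes. Median scaling gave 37 at least 1.1-fold higher, against 24%. With the second-brightest probe set, available for 20 members, 10 were higher, against 50.4% of all measured genes. Past 1.1-fold were 5 upward and 6 downward, against 29% and 29.1%. Medians were 0.0152 for all members, 0.0224 for the 60S proteins, -0.29 for the 1 paralog left and -0.0502 for mitochondrial ribosomal proteins. Fewer genes and dimmer probe sets enter there. With plain probe sets alone, 20 of 30 were higher, against 44.2% of all measured genes, and other TOP genes had a median of -0.0043. Past 1.1-fold were 9 upward and 5 downward, against 21.7% and 30.9%. The brightest probe set of any kind gave paralogs a median of 0.00655, as RPL7L1 entered. Members at least 1.1-fold lower numbered 0 with the floor at the 75th percentile, 3 with no floor and 2 with the median over probe sets. Of all measured genes 21.7%, 35.1% and 27% were lower by as much under these settings. At the lowest fold tried 41 were higher and 4 lower, and at 1.2-fold 3 were higher. Centring on genes of the same signal bin, chosen after seeing the data, gave a median of 0.0118, with 28 of 42 above and 1 at least 1.1-fold higher. Where no reason is given the cause was not tested.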
